A study of Mus musculus with 38 samples.

Results

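Chemokine ligand genes encode small secreted or membrane-tethered proteins that steer migrating cells. Genes were taken by symbol: every mouse gene named Ccl or Cxcl followed by a number, together with Cx3cl1 and Xcl1. This gave 38 genes of the 55502 gene IDs listed in the deposited tables. Ccl19-ps1 and Ccl19-ps3 are pseudogenes and were left out, and Pf4 and Ppbp are not named in this form.

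Chemokine ligands bind G protein-coupled receptors on leukocytes and set up gradients along which the cells move. Those of the ELR-type CXC class draw neutrophils, the monocyte chemoattractants of the CC class draw monocytes, and the interferon-inducible CXC ligands draw activated T cells. Epithelium and tumour cells of the lung are known sources of many of them, and Cxcl15, also called lungkine, is known in mouse as a product of airway and alveolar epithelium.

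RNA was sequenced in bulk from 38 libraries of mouse lung adenocarcinoma organoids grown in Matrigel with L-WRN conditioned medium. Each of the 8 lines came from 1 tumour of mixed 129/B6 background. All lines, those given vehicle included, carried p53frt and Rosa-FSF-CreERT2. The latter supplies, from the Rosa locus, a Cre protein whose activity 4-hydroxytamoxifen (4-OHT) switches on. Cultures received 2 uM 4-OHT for 72 h or ethanol vehicle, and the labels do not give the time of RNA collection. Double-floxed organoids (Foxa1flox and Foxa2flox) gave 5 4-OHT and 5 vehicle libraries from lines 1027B, 1027D and 1292B. Lines 1552A, 1552B and 1552C, with Foxa1flox alone, contributed 6 4-OHT and 6 vehicle libraries. Lines 1267B and 1526C, with Foxa2flox alone, contributed 4 of each treatment. Line 1027B with a hairpin against Nkx2-1 (shNKX2-1) or a scrambled hairpin (shScramble) gave 2 4-OHT and 2 vehicle libraries for each hairpin. No line lacked a floxed Foxa gene, so the effects of 4-OHT, of Cre and of the lost genes cannot be told apart. Nothing in the labels says that repeat libraries of a line came from separate cultures, so p-values may in part measure technical spread.

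Total counts per library were 18263673 to 31956057 in the double-floxed table, 18471187 to 33197038 in the single-floxed table and 13589826 to 16262459 in the hairpin table. Levels are given as CPM, counts scaled to a common library size with TMM factors. Foxa2 averaged 4.91 ± 1.47 CPM with 4-OHT and 114 ± 47.6 CPM with vehicle in double-floxed organoids (SD, n = 5 each). Foxa1 averaged 15.4 ± 1.27 CPM with 4-OHT and 59.97 ± 16.1 CPM with vehicle in Foxa1-floxed organoids (SD, n = 6 each). Nkx2-1 had 181 and 207 CPM in shNKX2-1 4-OHT libraries and 359 and 408 CPM in shScramble 4-OHT libraries, a difference that missed the threshold (log2 -0.98 ± 0.22 SE, edgeR adjusted p = 0.0763). Library 2 of the shNKX2-1 4-OHT group stood apart with 11.7% of its counts from mitochondrial transcripts, against at most 4.30% in the other libraries. All 6 epithelial markers passed the filter on low counts in each table. The 12 leukocyte markers summed to 26.04 to 244.6 CPM per library, led by Cd14 (at most 214 CPM), Cd68 (at most 46.4 CPM), Lyz2 (at most 45.9 CPM, also an alveolar type 2 gene) and Csf1r (at most 26.5 CPM). The defining Ptprc (at most 3.18 CPM), Adgre1 (at most 0.0363 CPM) and Cd3e (at most 1.18 CPM) were low in every library. The 8 fibroblast markers summed to 0.264 to 14.97 CPM per library, led by Acta2 (at most 14.05 CPM), with Col1a2 at most 0.0904 CPM and Lum at 0 CPM.

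Chemokine ligands were expressed very unequally. Of the 38 genes, 15 reached a mean of at least 5 CPM in some group and Ccl27a, a skin-associated ligand of Ccr10, reached between 1 and 5 CPM. A further 16 had counts but stayed under 1 CPM in every group mean, among them Ccl5 (at most 0.650 CPM), Ccl7 (at most 0.601 CPM), Ccl17 (at most 0.203 CPM) and Cxcl12 (at most 0.0157 CPM). The other 6 genes, Ccl11, Ccl19, Ccl21a, Ccl21b, Ccl24 and Ccl26, had no count in any of the 38 libraries. The filter on low counts let 17 genes through in at least 1 of the 8 comparisons made within a table. A low-count gene can pass through the group in which it is high.

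Per kilobase of exon, Cxcl15 led the family in most vehicle libraries, though not in most Foxa1-floxed ones. It had the highest level per kilobase in 14 of the 19 vehicle libraries and in 2 of the 19 4-OHT libraries. Cxcl16, the membrane-bound ligand of Cxcr6, led in 9 of the 19 4-OHT libraries and in 4 of the 19 vehicle libraries. Those 4 were all Foxa1-floxed, a group in which Cxcl15 led in 2 of 6 vehicle libraries. In double-floxed organoids Cxcl15 had 0.187 to 9.96 CPM per kb with 4-OHT and 134.7 to 1162 CPM per kb with vehicle. It was highest in 5 of 5 double-floxed vehicle libraries, although the ranges of Cxcl5 (1.17 to 211 CPM per kb) and Ccl20 (5.20 to 214 CPM per kb) over these libraries overlapped its own. In double-floxed 4-OHT libraries no gene led throughout: Cxcl16 (24.4 to 128 CPM per kb) was highest in 2 of 5 libraries, and Cxcl1 (5.29 to 273 CPM per kb), Cxcl5 (5.61 to 148 CPM per kb) and Ccl20 (10.7 to 80.5 CPM per kb) in 1 each. In hairpin 4-OHT libraries Cxcl5 came first, at 116 CPM per kb for shNKX2-1 and 102 CPM per kb for shScramble.

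**Figure D1:**
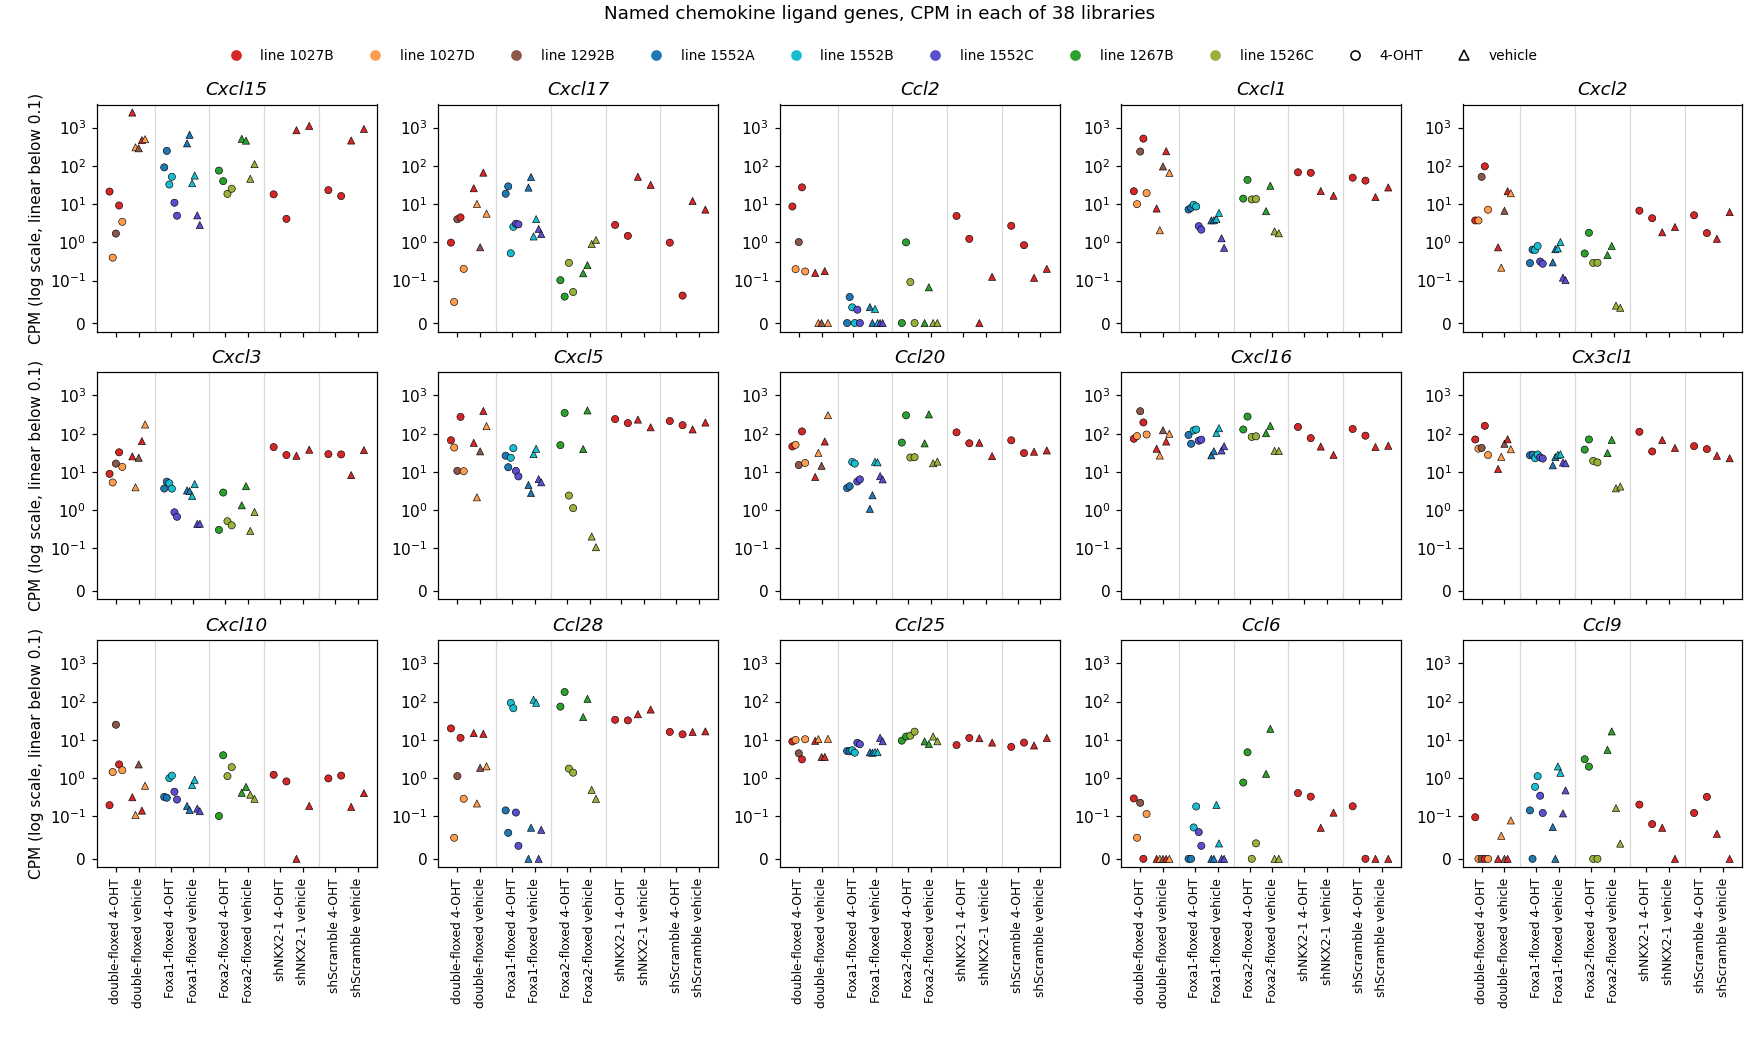
CPM of the 15 named chemokine ligand genes in each library (y axis, logarithmic above 0.1 and linear below), grouped by genotype or hairpin and treatment (x axis); circles are 4-OHT, triangles vehicle, and colours mark the line. In double-floxed organoids the 5 4-OHT points of Cxcl15 lie at or below 21.2 CPM and the 5 vehicle points at or above 287 CPM, while Ccl28 separates by line.

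Cxcl15 sits among genes of ELR-type ligands, which are known to attract neutrophils through Cxcr2. Cxcl5, Cxcl3, Cxcl15, Cxcl1 and Cxcl2 lie in this order on the + strand of chromosome 5, between positions 90759360 and 90905938 of GRCm38. Cxcl15 (ENSMUSG00000029375, 90794534 to 90803067) starts 4.9 kb after the end of Cxcl3, and Cxcl1 starts 96.7 kb after the start of Cxcl15. RefSeq promoter entries were found for 27 of the 38 genes. The 250 bases before the RefSeq start are printed for Cxcl15, whose level differed most, and for its neighbours Cxcl3, Cxcl1 and Cxcl2 (GRCm38.p6, + strand; chr5:90794284-90794533, chr5:90785851-90786100, chr5:90890995-90891244 and chr5:90903649-90903898). Capitals mark matches to the NF-kB-type pattern GGGANNTTC or to the forkhead-type patterns TGTTTAC and TATTTAC, read on both strands.
Cxcl15: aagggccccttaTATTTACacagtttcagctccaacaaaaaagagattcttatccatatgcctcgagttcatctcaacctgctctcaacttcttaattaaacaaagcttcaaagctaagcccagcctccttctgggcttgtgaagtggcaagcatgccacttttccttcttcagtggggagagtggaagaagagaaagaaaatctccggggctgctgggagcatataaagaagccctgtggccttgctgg
Cxcl3: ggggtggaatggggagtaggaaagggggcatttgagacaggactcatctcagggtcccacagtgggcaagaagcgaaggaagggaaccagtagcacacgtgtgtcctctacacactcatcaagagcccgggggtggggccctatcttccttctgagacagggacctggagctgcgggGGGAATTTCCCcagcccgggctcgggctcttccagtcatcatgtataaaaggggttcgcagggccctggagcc
Cxcl1: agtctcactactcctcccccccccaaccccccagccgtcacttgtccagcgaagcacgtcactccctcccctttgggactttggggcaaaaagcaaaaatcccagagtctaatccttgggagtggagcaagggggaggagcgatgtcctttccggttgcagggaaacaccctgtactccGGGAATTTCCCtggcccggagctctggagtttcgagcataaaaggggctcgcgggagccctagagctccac
Cxcl2: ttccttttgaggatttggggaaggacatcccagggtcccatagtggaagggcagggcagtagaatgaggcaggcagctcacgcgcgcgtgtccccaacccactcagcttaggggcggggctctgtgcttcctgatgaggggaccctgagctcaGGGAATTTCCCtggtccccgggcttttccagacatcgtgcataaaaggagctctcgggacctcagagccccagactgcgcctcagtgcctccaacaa

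The upstream bases of Cxcl3, Cxcl1 and Cxcl2 each held GGGAATTTCCC, in which the matches on both strands overlap, beginning at positions -73, -71 and -97 from the start. No match to the NF-kB-type pattern was in the 250 bases of Cxcl15, which held TATTTAC at position -238. Among all 32851 RefSeq promoters, 3.23% held GGGANNTTC and 5.76% held TGTTTAC or TATTTAC in the same window. Of the 27 chemokine genes with an entry, 6 held the first (Cxcl1, Cxcl2, Cxcl3, Cxcl9, Cxcl10 and Ccl1) and 2 the second (Cxcl15 and Ccl9). The patterns were settled after other spellings had been searched in these sequences. A match describes letters in a window, not binding.

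In double-floxed organoids given 4-OHT, Cxcl15 fell to a small part of its vehicle level in every line. Ccl2 was called higher, from few or no counts with vehicle, and most of its counts came from line 1027B. The neutrophil attractants Cxcl1, Cxcl2, Cxcl3 and Cxcl5 did not pass the test. Of 15 chemokine ligand genes tested, 2 were called, Ccl2 higher and Cxcl15 lower, beside 3.9% of all 15198 genes tested. Ccl2 passed the filter on low counts only through the 4-OHT group in which it is high, and a gene that enters a test in this way had to differ. The median log2 change was 0.0 over the 15 genes and 0.021 over all genes. The question was which genes change when tumour cells that express Nkx2-1 lose Foxa1 and Foxa2. In bulk RNA, fewer cells of a type and less RNA per cell cannot be told apart.

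Cxcl15, which attracts neutrophils in mouse lung, had 21.2 and 9.16 CPM in line 1027B, 0.397 and 3.42 CPM in 1027D and 1.69 CPM in 1292B with 4-OHT, against 2471 and 467 CPM in 1027B, 304 and 496 CPM in 1027D and 287 CPM in 1292B with vehicle. Every 4-OHT library was below every vehicle library. The log2 change was -7.17 ± 0.77 (SE; edgeR adjusted p = 0.00427), and Cxcl15 was lower with 4-OHT in 5 of 5 pairs of the same line and sample-name prefix. The first part of a sample name, 17699 or 17992, separates the libraries into sets of unknown meaning. Within prefix 17699 the log2 change was -7.70 (edgeR adjusted p = 0.0284), and within prefix 17992 it was -6.42 (edgeR adjusted p = 0.0516). Both of these fits were chosen after seeing the data. Without line 1027D the value was -6.83 (edgeR adjusted p = 0.144), a fit in which edgeR called 0 genes of any kind.

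Ccl2, the main attractant of monocytes through Ccr2, had 8.62 and 27.3 CPM in line 1027B, 0.198 and 0.173 CPM in 1027D and 1.01 CPM in 1292B with 4-OHT, against 0.158 and 0.177 CPM in 1027B and 0 CPM in the other vehicle libraries. In counts these are 176 and 610, 4 and 6, and 18 with 4-OHT, against 3 and 5, 0 and 0, and 0 with vehicle. Most of the RNA came from line 1027B, and over all lines the groups just overlapped, since 1027D with 4-OHT (0.173 CPM) was level with 1027B with vehicle (0.177 CPM). The log2 change was 6.64 ± 0.59 (SE; edgeR adjusted p = 0.00188), with a higher level in 5 of 5 pairs. Within these pairs the log2 ratio, with 0.1 CPM added to each level, ran from 1.45 to 6.63, a spread that this SE does not show. Without line 1027D the value was 6.73 (edgeR adjusted p = 0.0925), and without line 1027B, without line 1292B, without the replicate block and within prefix 17992 Ccl2 did not pass the filter on low counts. Ccl7, its neighbour on chromosome 11 and also a monocyte attractant, had 65 of its counts in double-floxed 4-OHT replicate 4 of line 1027B and 0 counts in every double-floxed vehicle library.

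Of 12 leukocyte markers, 7 were tested in double-floxed organoids and 1, Csf1r, the receptor of the macrophage growth factor Csf1, was called (log2 4.49 ± 0.66 SE, edgeR adjusted p = 0.0114). Over all 15198 genes tested the share called was 3.9%. Csf1r spanned 0.492 to 26.5 CPM with 4-OHT and 0.0354 to 1.54 CPM with vehicle. The summed level of the list was 48.3 to 100.2 CPM with 4-OHT and 61.05 to 244.6 CPM with vehicle, and Adgre1, the defining macrophage marker, was at 0 in all 10 libraries. Fibroblast markers summed to 0.451 to 6.90 CPM with 4-OHT and 0.264 to 5.60 CPM with vehicle, and endothelial markers to 0.581 to 3.22 CPM with 4-OHT and 1.055 to 4.62 CPM with vehicle. None of the 3 fibroblast and 3 endothelial markers tested was called. The part of Csf1r-expressing cells in the Ccl2 result was not tested.

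Cxcl17, a ligand of mucosal epithelium, had 0.979 and 4.47 CPM in line 1027B, 0.0496 and 0.201 CPM in 1027D and 4.00 CPM in 1292B with 4-OHT, against 25.9 and 66.3 CPM in 1027B, 10.1 and 5.60 CPM in 1027D and 0.742 CPM in 1292B with vehicle. It was lower with 4-OHT in 4 of 5 pairs, and line 1292B went the other way, so the groups overlapped. The log2 change of -3.88 ± 1.27 (SE) missed the threshold (edgeR adjusted p = 0.127). With line 1292B left out edgeR called Cxcl17 and Cxcl15, among 253 of 14112 genes, while Ccl2 no longer passed the filter on low counts.

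Cxcl10, an interferon-inducible ligand of Cxcr3, had 0.196 and 2.28 CPM in 1027B, 1.44 and 1.61 CPM in 1027D and 24.8 CPM in 1292B with 4-OHT, against 0.316 and 0.141 CPM in 1027B, 0.109 and 0.633 CPM in 1027D and 2.28 CPM in 1292B with vehicle. Line 1292B was highest in both groups, and the log2 change of 2.50 ± 0.70 (SE) missed the threshold (edgeR adjusted p = 0.0836). Cxcl16 was higher with 4-OHT in 4 of 5 pairs, with 73.6 to 386 CPM with 4-OHT and 26.9 to 123 CPM with vehicle, and its log2 change of 1.10 ± 0.41 (SE) missed the threshold (edgeR adjusted p = 0.179).

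Cxcl1, Cxcl5, Cxcl3 and Ccl20 varied widely between repeat libraries of the same line, which carry different name prefixes. Cxcl1 had 21.6 CPM with 4-OHT and 7.65 CPM with vehicle in line 1027B under prefix 17699, but 512 CPM with 4-OHT and 240.4 CPM with vehicle in the same line under prefix 17992. In line 1027D the direction turned: Cxcl1 had 9.92 CPM with 4-OHT and 2.07 CPM with vehicle under prefix 17699, and 19.3 CPM with 4-OHT and 65.6 CPM with vehicle under prefix 17992. Cxcl5 had 43.5 CPM with 4-OHT and 2.17 CPM with vehicle in 1027D under prefix 17699, and 10.4 CPM with 4-OHT and 158 CPM with vehicle under 17992. Ccl20, the ligand of Ccr6, and Cxcl3 had their highest double-floxed values in the same 1027D vehicle library, at 305 and 174 CPM. The part of the name prefix in these values was not tested.

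Cxcl2 had 3.72 to 96.6 CPM with 4-OHT and 0.217 to 21.6 CPM with vehicle, and was higher with 4-OHT in 4 of 5 pairs. Within prefix 17699 alone, a fit chosen after seeing the data, it was called, together with Ccl2 and Cxcl15, among 209 of 14437 genes. Fitted over all 10 libraries, log2 changes were 0.25 ± 1.24 for Cxcl1, 1.18 ± 1.44 for Cxcl2, -1.82 ± 0.96 for Cxcl3, -1.13 ± 0.99 for Cxcl5 and -0.39 ± 1.00 for Ccl20 (SE), with edgeR adjusted p from 0.336 to 0.947. Cx3cl1, the membrane-tethered ligand of Cx3cr1, had 27.7 to 160.5 CPM with 4-OHT and 11.97 to 71.5 CPM with vehicle, and was higher with 4-OHT in 3 of 5 pairs. Ccl25, the ligand of Ccr9, had 3.08 to 10.4 CPM with 4-OHT and 3.55 to 10.6 CPM with vehicle (log2 0.00, edgeR adjusted p = 0.998).

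**Figure D2:**
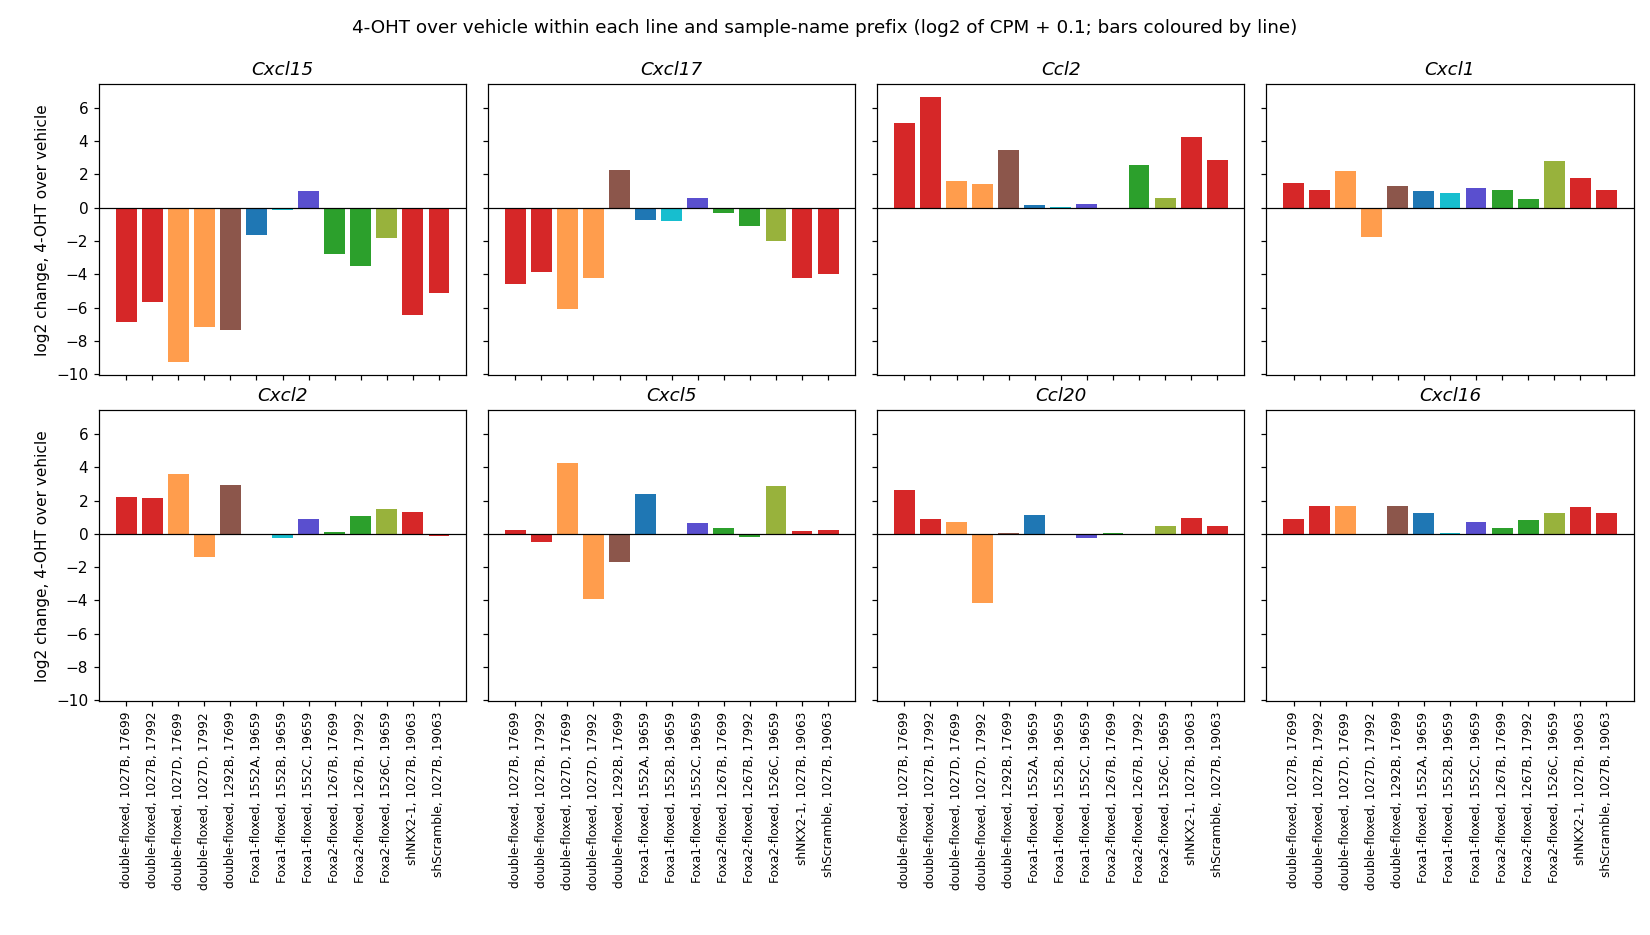
Log2 of 4-OHT over vehicle CPM (0.1 CPM added to each) for 8 chemokine ligand genes, with 1 bar for each genotype or hairpin, line and sample-name prefix; bar colours mark the line. Cxcl15 bars of double-floxed organoids run from -9.26 to -5.66, while Cxcl5 bars of line 1027D point both ways, at 4.26 and -3.90.

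In Foxa1-floxed organoids no chemokine ligand gene passed the test. Of 15 genes tested, 0 were called by edgeR and 0 by DESeq2, beside 0.0118% of all 16887 genes called by edgeR and 245 called by DESeq2. An unadjusted p under 0.05 was found for 2 of the 15, and for 11.42% of all genes. The median log2 change was 0.26 over the 15 genes and 0.01 over all genes. Cxcl15 had 90.9 and 246 CPM in line 1552A, 32.4 and 51.5 CPM in 1552B and 10.8 and 4.95 CPM in 1552C with 4-OHT, against 386 and 647 CPM in 1552A, 35.0 and 55.6 CPM in 1552B and 5.06 and 2.83 CPM in 1552C with vehicle. Levels differed between lines: both 4-OHT libraries of 1552A were below its vehicle libraries, those of 1552B overlapped, and those of 1552C ran 4.95 and 10.8 CPM against 2.83 and 5.06 CPM. The fitted log2 change was -0.30 ± 0.43 (SE; edgeR adjusted p = 0.829).

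Cxcl1 had 2.14 to 9.56 CPM (median 7.59) in Foxa1-floxed 4-OHT libraries and 0.717 to 5.84 CPM (median 3.76) in Foxa1-floxed vehicle libraries. Its mean was higher with 4-OHT in 3 of 3 lines, yet the log2 change of 1.04 ± 0.38 (SE) missed the threshold (edgeR adjusted p = 0.324). Cxcl16 had 54.5 to 128 CPM (median 81.2) with 4-OHT and 27.2 to 139 CPM (median 41.8) with vehicle, with log2 0.66 ± 0.22 (SE; edgeR adjusted p = 0.286). Ccl2 had 4 counts over the 6 4-OHT libraries and 2 counts over the 6 vehicle libraries, too few to be tested. Cxcl17 had 0.517 to 28.9 CPM (median 2.99) with 4-OHT and 1.42 to 51.0 CPM (median 3.13) with vehicle, with its high values in line 1552A.

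In Foxa2-floxed organoids Cxcl15 fell, and whether other ligands passed the threshold depended on how libraries were paired. Of 15 genes tested, 1 was called, beside 3.43% of all 16887 genes. An unadjusted p under 0.05 was found for 10 of the 15, and for 14.16% of all genes. With a replicate block of line and name prefix, 6 of the 15 were called (Cxcl15 lower, and Ccl28, Cx3cl1, Cxcl1, Cxcl10 and Cxcl16 higher), beside 914 of 17508 genes, and with counts summed per line 0 were called, beside 73 of 18384. The median log2 change was 0.41 over the 15 genes and -0.006 over all genes. Cxcl15 had 74.8 and 39.7 CPM in line 1267B and 18.4 and 25.1 CPM in 1526C with 4-OHT, against 506 and 455 CPM in 1267B and 45.8 and 111 CPM in 1526C with vehicle. The groups overlapped across lines but not within either line. The log2 change was -2.47 ± 0.52 (SE; edgeR adjusted p = 0.0142). The call was lost without the replicate block of line (log2 -2.82, edgeR adjusted p = 1.0), without line 1267B (-1.85, edgeR adjusted p = 0.159), without line 1526C (-3.08, edgeR adjusted p = 0.151), with counts summed per line (-2.55, edgeR adjusted p = 0.167) and without vehicle replicate 4 (-2.36, edgeR adjusted p = 0.0647).

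Several genes came close in Foxa2-floxed organoids. Cxcl10 had 0.102 and 3.95 CPM in line 1267B and 1.12 and 1.94 CPM in 1526C with 4-OHT, against 0.413 and 0.589 CPM in 1267B and 0.369 and 0.287 CPM in 1526C with vehicle. A 1267B library with 4-OHT was below all vehicle libraries and the other 3 were above them. Its log2 change was 2.12 ± 0.58 (SE; edgeR adjusted p = 0.0559). Cxcl1 had 13.9 and 42.9 CPM in 1267B and 13.2 and 13.5 CPM in 1526C with 4-OHT, against 6.51 and 30.1 CPM in 1267B and 1.93 and 1.72 CPM in 1526C with vehicle. Its log2 change was 1.70 ± 0.49 (SE; edgeR adjusted p = 0.0686), and that of Cxcl16 was 0.93 ± 0.27 (SE; edgeR adjusted p = 0.0697). Cx3cl1 had 38.3 and 70.7 CPM in 1267B and 19.4 and 17.7 CPM in 1526C with 4-OHT, against 31.2 and 68.9 CPM in 1267B and 3.73 and 4.16 CPM in 1526C with vehicle, so its difference lay mainly in 1526C. Cxcl17 was lower with 4-OHT in 3 of 3 pairs of line and prefix, but scarce. It had 0.102 and 0.0622 CPM in 1267B with 4-OHT, against 0.155 and 0.252 CPM with vehicle. In 1526C it averaged 0.181 CPM with 4-OHT and 1.02 CPM with vehicle (log2 -2.12 ± 0.69 SE, edgeR adjusted p = 0.112). Without 4-OHT replicate 1 of line 1267B, 7 genes were called, among them Ccl28, Cx3cl1, Cxcl1, Cxcl2, Cxcl10 and Cxcl16 as higher, beside 927 of 17414 genes, and DESeq2 also called 7 of 15, beside 985 of 16887.

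Ccl9 and Ccl6, which act through Ccr1 in mouse, had their highest levels in line 1267B. Its libraries carry prefix 17699 or 17992 and those of 1526C 19659, so line and prefix cannot be told apart. Ccl9 had 3.11 and 1.99 CPM in 1267B and 0 CPM in 1526C with 4-OHT, against 5.47 and 16.6 CPM in 1267B and 0.164 and 0.0359 CPM in 1526C with vehicle (log2 -2.27, edgeR adjusted p = 0.0745). Ccl6 had 0.765 and 4.73 CPM in 1267B with 4-OHT, against 1.29 and 19.4 CPM with vehicle (log2 -1.72, edgeR adjusted p = 0.471). Ccl2 reached 32 counts in 4-OHT replicate 2 of 1267B and at most 3 counts in the other Foxa2-floxed libraries, and was not tested there. Of 12 leukocyte markers, 8 were tested in Foxa2-floxed organoids and 2 were called higher, Csf1r (log2 2.37, edgeR adjusted p = 0.00756) and Itgam (log2 2.22, edgeR adjusted p = 0.0403). Over all 16887 genes tested the share called was 3.43%. Itgam reached at most 0.809 CPM with 4-OHT and 0.210 CPM with vehicle, and Adgre1 was at 0 in all 8 libraries. At these levels Itgam may have passed the filter on low counts only through libraries in which it is high. A gene that enters a test in this way had to differ. The part of Csf1r and Itgam in the chemokine values was not tested.

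**Figure D3:**
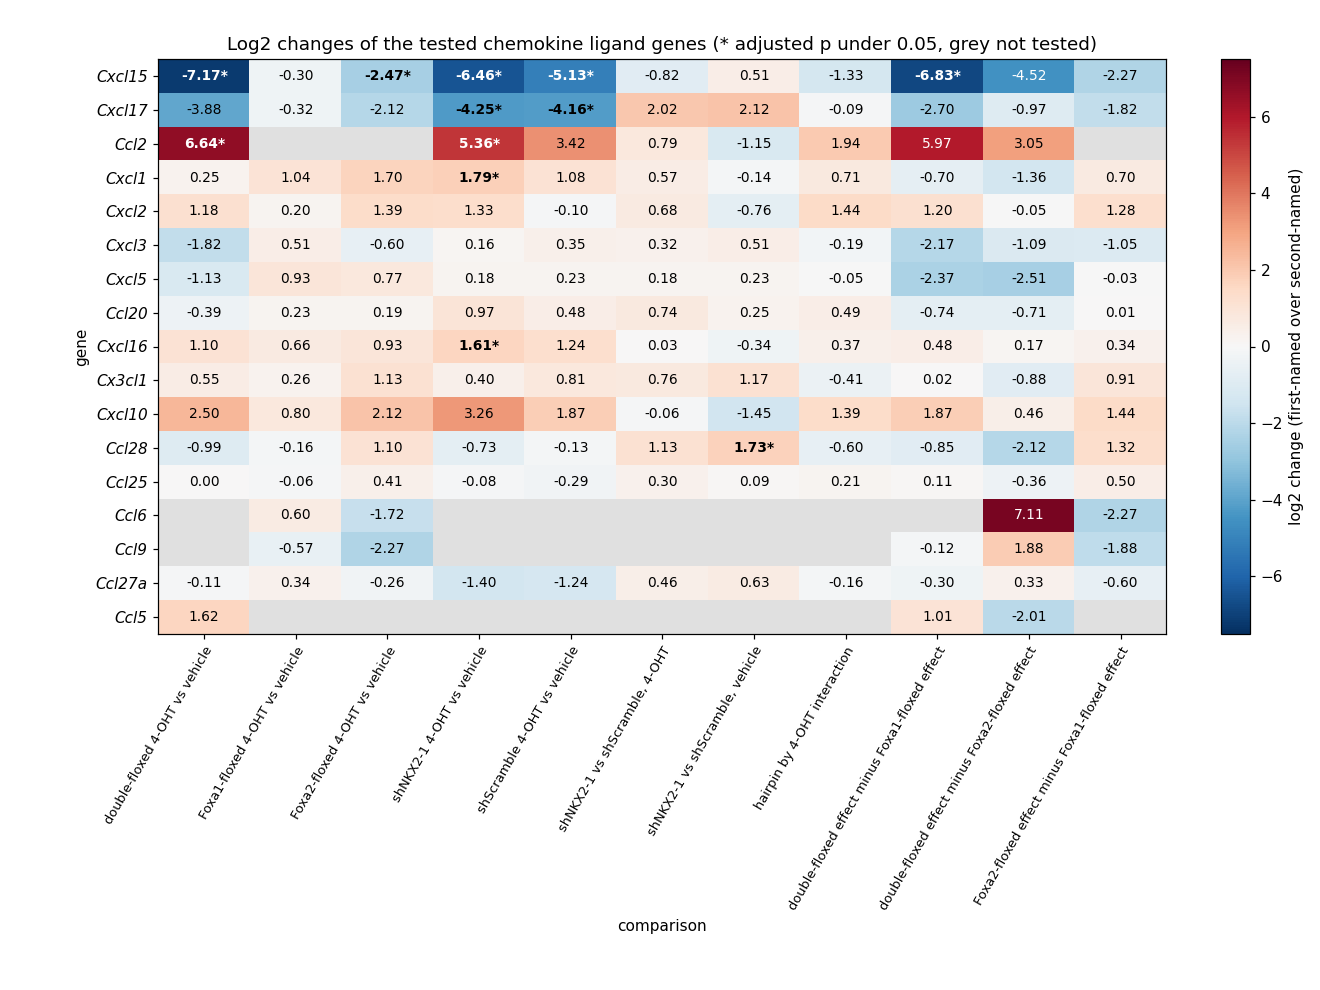
Fitted log2 changes of the 17 chemokine ligand genes that passed the filter on low counts (rows) in 11 comparisons (columns), where colour and number give the change of the first-named over the second-named group or effect; stars mark an edgeR adjusted p under 0.05 and grey cells were not tested. Cxcl15 is negative in all 5 comparisons of 4-OHT with vehicle, at -0.30 in Foxa1-floxed organoids and from -7.17 to -2.47 in the others. The value of Ccl6 in the difference between double-floxed and Foxa2-floxed effects rests on 0 counts in double-floxed vehicle libraries and is no bound.

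The difference between genotypes was tested on counts summed per line. All Foxa1-floxed libraries carry prefix 19659 and all double-floxed libraries 17699 or 17992, in separate tables. Genotype, prefix and table therefore cannot be told apart in that difference. The double-floxed effect on Cxcl15 was below the Foxa1-floxed effect by a log2 difference of -6.83 ± 0.69 (SE; edgeR adjusted p = 0.00999). Cxcl15 was the 1 gene called of 16 tested, beside 1.34% of all 18501 genes. Without line 1552B the difference was -6.76 (edgeR adjusted p = 0.0519). For Ccl2 the same difference was 5.97 ± 1.27 (SE) and missed the threshold (edgeR adjusted p = 0.0847). Between double-floxed and Foxa2-floxed effects edgeR called 0 of 17 chemokine ligand genes, beside 0% of all 18096 genes. An unadjusted p under 0.05 was found for 5 of the 17, and for 6.985% of all genes. DESeq2 called 2 of the 17, beside 311 of 18096 genes: Cxcl15, and Ccl6, whose value rests on 0 counts in double-floxed vehicle libraries. The Cxcl15 difference there was -4.52 ± 0.52 (SE; edgeR adjusted p = 0.163). Between Foxa2-floxed and Foxa1-floxed effects edgeR called 0 of 15, beside 0% of all 18381 genes, and DESeq2 called 0, beside 138 of 18381. An unadjusted p under 0.05 was found for 6 of the 15, and for 5.827% of all genes. The Cxcl15 difference was -2.27 ± 0.77 (SE; edgeR adjusted p = 0.773).

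The hairpin experiment repeated the 4-OHT comparison in line 1027B, which is also in the double-floxed set. In shNKX2-1 organoids Ccl2, Cxcl1 and Cxcl16 rose with 4-OHT and Cxcl15 and Cxcl17 fell, 5 of 14 genes tested, beside 6.35% of all 14465 genes. In shScramble organoids Cxcl15 and Cxcl17 fell, 2 of 14, beside 4.33% of all 14465 genes. As in the double-floxed fit, Ccl2 passed the filter on low counts only through 4-OHT libraries, in which it is high, so it had to differ. The median log2 change of the 14 genes was 0.29 for each hairpin, and 0.023 over all genes. The 4 groups share 1 estimate of spread. Fitted on the 4 libraries of each hairpin alone, the counts turned round: 2 were called for shNKX2-1 (Cxcl15 and Cxcl17), beside 245 of 13768 genes, and 5 for shScramble (Ccl2, Cx3cl1 and Cxcl16 higher, Cxcl15 and Cxcl17 lower), beside 1602 of 13711.

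Cxcl15 had 17.9 and 4.09 CPM in shNKX2-1 4-OHT libraries, against 851 and 1103 CPM in shNKX2-1 vehicle libraries (log2 -6.46 ± 0.74 SE, edgeR adjusted p = 0.00297). In shScramble organoids it had 23.1 and 16.1 CPM with 4-OHT, against 458 and 918 CPM with vehicle (log2 -5.13 ± 0.70 SE, edgeR adjusted p = 0.00617). No 4-OHT library overlapped a vehicle library for either hairpin. In shScramble organoids the call was lost without 4-OHT replicate 1 (edgeR adjusted p = 0.0560) and without 4-OHT replicate 2 (edgeR adjusted p = 0.0845).

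Cxcl17 had 2.84 and 1.47 CPM in shNKX2-1 4-OHT libraries, against 51.7 and 31.7 CPM in shNKX2-1 vehicle libraries (log2 -4.25 ± 0.71 SE, edgeR adjusted p = 0.0128). In shScramble organoids it had 0.979 and 0.0645 CPM with 4-OHT, against 12.03 and 7.16 CPM with vehicle (log2 -4.16 ± 0.78 SE, edgeR adjusted p = 0.0226). These groups did not overlap for either hairpin. The calls were lost without shNKX2-1 vehicle replicate 1 (edgeR adjusted p = 0.0794) and without shScramble 4-OHT replicate 2 (edgeR adjusted p = 0.0997), shScramble vehicle replicate 1 (edgeR adjusted p = 0.119) or shScramble vehicle replicate 2 (edgeR adjusted p = 0.0837).

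Ccl2 had 4.87 and 1.23 CPM in shNKX2-1 4-OHT libraries, against 0 and 0.125 CPM in shNKX2-1 vehicle libraries, which is 87 counts against 2 (log2 5.36 ± 1.19 SE, edgeR adjusted p = 0.0361). In shScramble organoids it had 2.69 and 0.839 CPM with 4-OHT, against 0.118 and 0.203 CPM with vehicle, 57 counts against 5 (log2 3.42 ± 1.05 SE, edgeR adjusted p = 0.144). The 4-OHT libraries were above the vehicle libraries for both hairpins. Cxcl1 had 67.5 and 65.5 CPM in shNKX2-1 4-OHT libraries, against 21.9 and 16.5 CPM in shNKX2-1 vehicle libraries (log2 1.79 ± 0.32 SE, edgeR adjusted p = 0.0159). In shScramble organoids Cxcl1 had 48.8 and 40.9 CPM with 4-OHT, against 15.2 and 27.1 CPM with vehicle (log2 1.08 ± 0.31 SE, edgeR adjusted p = 0.112). Cxcl16 had 149.8 and 76.4 CPM in shNKX2-1 4-OHT libraries, against 46.1 and 27.9 CPM in shNKX2-1 vehicle libraries (log2 1.61 ± 0.39 SE, edgeR adjusted p = 0.0474). Without either shNKX2-1 vehicle library these 3 calls were lost, with edgeR adjusted p of 0.217 and 0.145 for Ccl2, 0.0817 and 0.152 for Cxcl1, and 0.128 and 0.301 for Cxcl16. They were also lost in the fit on the 4 shNKX2-1 libraries alone, with edgeR adjusted p of 0.0930 for Ccl2, 0.0575 for Cxcl1 and 0.166 for Cxcl16. Without 4-OHT replicate 2, the library rich in mitochondrial transcripts, all 5 calls held.

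**Figure D4:**
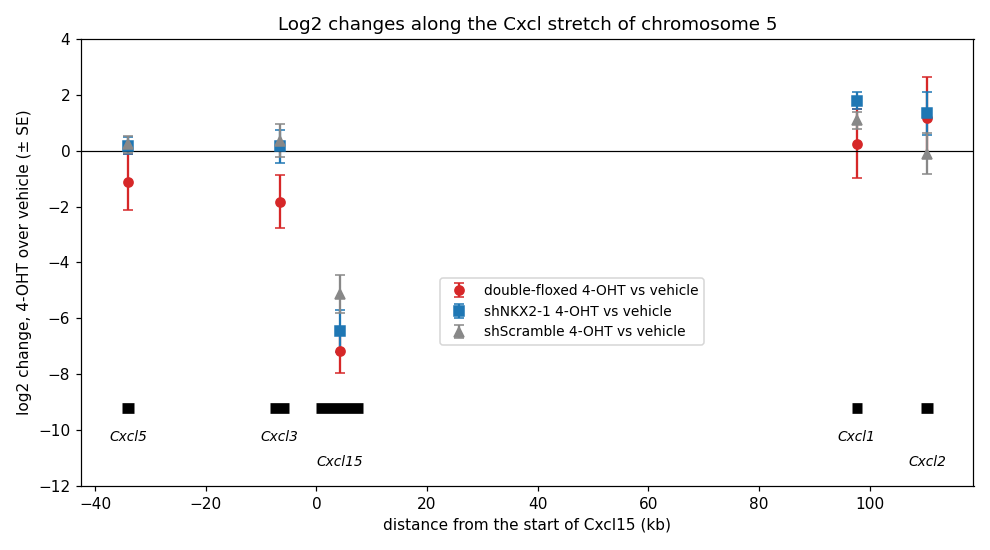
Log2 change of 4-OHT over vehicle with its SE (y axis) for the 5 Cxcl genes of the chromosome 5 stretch, placed by distance in kb from the start of Cxcl15 (x axis); black bars show the genes, and markers show double-floxed, shNKX2-1 and shScramble organoids. Cxcl15 lies between -7.17 and -5.13 in the 3 sets, and its neighbours lie between -1.82 and 1.79.

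Between hairpins, Ccl28, a mucosal ligand of Ccr10 and Ccr3, was called higher with the Nkx2-1 hairpin in vehicle libraries only. In vehicle libraries it had 46.8 and 62.1 CPM with shNKX2-1, against 16.1 and 16.7 CPM with shScramble, without overlap (log2 1.73 ± 0.24 SE, edgeR adjusted p = 0.0390). It was the 1 gene called of 14, beside 0.235% of all 14465 genes, and the call was lost without any 1 of the 4 vehicle libraries (edgeR adjusted p from 0.120 to 0.383). Nkx2-1 itself was not called by edgeR between hairpins, in vehicle or in 4-OHT libraries. In 4-OHT libraries Ccl28 had 33.4 and 32.3 CPM with shNKX2-1, against 16.1 and 13.9 CPM with shScramble (log2 1.13 ± 0.24 SE, edgeR adjusted p = 0.0665). There edgeR called 0 of 14, beside 1.58% of all 14465 genes, and DESeq2 called 1, beside 704 of 14465. An unadjusted p under 0.05 was found for 2 of the 14, and for 13.94% of all genes. Cxcl17 had 51.7 and 31.7 CPM in shNKX2-1 vehicle libraries, against 12.03 and 7.16 CPM in shScramble vehicle libraries (log2 2.12 ± 0.63 SE, edgeR adjusted p = 0.352). The test of whether the 4-OHT effect differed between hairpins called 0 of 14 by edgeR, beside 0% of all 14465 genes. DESeq2 called 0 of the 14, beside 84 of 14465 genes. In edgeR 0 of the 14 and 5.406% of all genes had an unadjusted p under 0.05. Comparisons between hairpins share libraries with those of 4-OHT and vehicle.

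Several chemokine ligands differed widely between lines under both treatments. Ccl28 had 67.1 and 92.6 CPM in line 1552B with 4-OHT and 93.3 and 112 CPM with vehicle, against at most 0.143 CPM in lines 1552A and 1552C. It had 73.9 and 178 CPM in line 1267B with 4-OHT and 39.2 and 118 CPM with vehicle, against 1.39 and 1.77 CPM with 4-OHT and 0.287 and 0.492 CPM with vehicle in 1526C. Ccl20 had 16.6 and 18.2 CPM with 4-OHT and 17.8 and 18.4 CPM with vehicle in 1552B, above the other Foxa1-floxed lines. Ccl27a was almost absent from line 1027B outside the hairpin set, with 0 and 0.0447 CPM with 4-OHT and 0.0527 and 0.0708 CPM with vehicle, but had 0.943 to 1.98 CPM in hairpin vehicle libraries of that line. Libraries of 1267B carry prefix 17699 or 17992 and those of 1526C 19659, so line and prefix cannot be told apart between them. Hairpin libraries carry prefix 19063, so in 1027B hairpin and prefix cannot be told apart either. Differences between lines were not tested, since each line is 1 tumour.

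Receptors for these ligands were scarcer. Of 22 chemokine receptor genes, 7 were tested in double-floxed, 6 in each single-floxed and 3 in hairpin comparisons. In Foxa2-floxed organoids 2 of 6 were called higher, Ackr3, a scavenging receptor of Cxcl12 (6.04 ± 1.52 CPM with 4-OHT and 0.979 ± 0.490 CPM with vehicle, SD, n = 4 each; log2 2.62, edgeR adjusted p = 0.0145), and Ccr1 (6.28 ± 7.03 CPM with 4-OHT and 0.801 ± 1.17 CPM with vehicle, SD, n = 4 each; log2 3.13, edgeR adjusted p = 0.0223). The share called over all 16887 genes there was 3.43%. In double-floxed, Foxa1-floxed and hairpin comparisons edgeR called 0 receptors. The shares over all genes were 3.9% in double-floxed, 0.0118% in Foxa1-floxed and 0% to 6.35% in hairpin comparisons. Ccr1 in double-floxed organoids had 1.52 to 30.3 CPM with 4-OHT and 0.283 to 5.69 CPM with vehicle (log2 3.63 ± 1.28 SE, edgeR adjusted p = 0.154).

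Some other inflammatory genes passed the test, given here with the share called over all genes. Of 28 NF-kB and cytokine genes, 26 were tested in double-floxed organoids, where Csf1 rose (log2 3.60, edgeR adjusted p = 0.0234) and the adhesion gene Icam1 (log2 -2.66, edgeR adjusted p = 0.0101) and the alarmin Il33 (log2 -2.70, edgeR adjusted p = 0.0446) fell. Those 3 of 26 stand beside 3.9% of all 15198 genes. In Foxa2-floxed organoids Csf2 (log2 2.24, edgeR adjusted p = 0.0181) and Traf1 (log2 3.32, edgeR adjusted p = 0.0225) rose and Icam1 fell (log2 -0.77, edgeR adjusted p = 0.0321), 3 of 26, beside 3.43% of all 16887 genes. In Foxa1-floxed organoids 0 of 26 passed, beside 0.0118% of all 16887 genes. With 4-OHT, 1 of 24 genes was called higher and 2 lower for each hairpin, and for both Csf2 rose and Il33 was among those that fell. The shares over all genes were 6.35% for shNKX2-1 and 4.33% for shScramble. The fitted change was positive for 18 of 26 genes in double-floxed, 20 of 26 in Foxa1-floxed and 22 of 26 in Foxa2-floxed organoids. Over all genes it was positive for 52.22%, 51.92% and 48.93%, in the same order. The list's median log2 change was 0.25 in double-floxed, 0.18 in Foxa1-floxed and 0.43 in Foxa2-floxed organoids. Over all genes the median was 0.021, 0.01 and -0.006. A shift of the list as a whole was not tested.

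Of 21 interferon genes, which include regulators and targets that act beside Cxcl10, 1 was called higher in double-floxed organoids, Rsad2 (log2 5.62, edgeR adjusted p = 0.0402), and 2 in Foxa2-floxed organoids, Zbp1 (log2 3.64, edgeR adjusted p = 0.0451) and Irf7 (log2 3.35, edgeR adjusted p = 0.0453). The shares called over all genes were 3.9% in double-floxed and 3.43% in Foxa2-floxed organoids. The median log2 changes of the 21 genes were 1.46 in double-floxed, 0.87 in Foxa1-floxed and 2.51 in Foxa2-floxed organoids. Over all genes they were 0.021, 0.01 and -0.006, in the same order. In shNKX2-1 organoids 6 of 19 were called higher with 4-OHT, beside 6.35% of all genes. In shScramble organoids 3 of 19 were higher and 2 lower, beside 4.33% of all genes.

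Alveolar type 2 genes mark the lung epithelial cell that makes surfactant. Of 10 genes tested, 3 fell in double-floxed organoids, Sftpa1 (log2 -7.90, edgeR adjusted p = 0.0179), Lamp3 (log2 -6.98, edgeR adjusted p = 0.0348) and Sftpb (log2 -1.84, edgeR adjusted p = 0.0404), and 0 rose, beside 3.9% of all 15198 genes called. In Foxa2-floxed organoids Sftpc (log2 -2.31, edgeR adjusted p = 0.0350) and Etv5 (log2 -0.67, edgeR adjusted p = 0.0464) fell, beside 3.43% of all 16887 genes called. In Foxa1-floxed organoids 0 passed, beside 0.0118%. Their part in the Cxcl15 result was not tested.

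Genes on the opposite strand overlap Ccl2 (Gm17268), Ccl25 (Elavl1), Ccl27a (Il11ra1), Cxcl10 (Art3), Cxcl16 (Zmynd15) and Cxcl17 (4732471J01Rik) in the annotation. The libraries were made with a directional kit, but no source used here gives the strand setting of the counting, so reads of such a pair may not have been separated. The pairs Ccl21a and Ccl21b and Ccl27a and Ccl27b are close copies between which reads may be split.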

How the data were processed

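The authors deposited raw counts of reads per Ensembl gene ID, 1 column per library in 3 tables (double-floxed, single-floxed and hairpin). Per the submitters' processing notes the tools were featureCounts 1.5.1, DESeq2 and STAR 2.7.6a, with GRCm38 as the build. Neither roles nor strand and multi-mapping settings are stated there. Symbols, coordinates and exon lengths came from GENCODE M21, and promoter sequences from RefSeq GRCm38.p6.

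Each table was tested on its own by the quasi-likelihood F test of edgeR 4.0.16 under R 4.3.3, after filterByExpr and TMM scaling, with Benjamini-Hochberg adjustment over all genes tested and a threshold of 0.05. Organoid line was the block, because vehicle and 4-OHT libraries of a line share a tumour, and the single-floxed genotypes were fitted together. Effects were compared between genotypes on counts summed per line, joining tables that share the gene IDs. Each SE given is the size of the log2 change divided by the square root of its F statistic, not a directly fitted standard error. The fits were tested on simulated data. DESeq2 1.42.0, RLE normalisation, other blocks, no filter and left-out libraries and lines were alternatives.

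Named are genes called in any comparison, those with a group mean of at least 5 CPM, and Cxcl15 and Ccl2, with up to 4 called genes per direction of other lists. Members and lists were chosen with earlier results of these data known. An allele that all lines share and a marker gene are not reported here.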

Additional observations from a re-analysis of the deposited data

Results flagged for a closer look

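Within a group, the highest library was set against the rest by Dixon's criterion, which chance meets in about 5% of groups. Most of the libraries it picked out came from prefix 17992. Ccl20 stood out at 302 CPM in Foxa2-floxed 4-OHT replicate 2 (line 1267B), at 320 CPM in Foxa2-floxed vehicle replicate 2 of the same line, and at 305 CPM in double-floxed vehicle replicate 5 (line 1027D).

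The same 1267B libraries stood out for other ligands. With 4-OHT, replicate 2 had 42.9 CPM of Cxcl1, 2.89 CPM of Cxcl3, 348 CPM of Cxcl5 and 4.73 CPM of Ccl6, and with vehicle, replicate 2 had 30.1 CPM of Cxcl1, 406 CPM of Cxcl5 and 19.4 CPM of Ccl6. Cxcl5 also stood out at 274.9 CPM in double-floxed 4-OHT replicate 4 (line 1027B). Cxcl10 stood out at 24.8 CPM in double-floxed 4-OHT replicate 3 (line 1292B).

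Cxcl15 stood out at 246 CPM in Foxa1-floxed 4-OHT replicate 2 (line 1552A) and at 2471 CPM in double-floxed vehicle replicate 1 (line 1027B). Its effect also differed between genotypes, with a log2 difference of -6.83 between double-floxed and Foxa1-floxed organoids in the test of the difference itself. Genotype and name prefix cannot be told apart there.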

How the results depend on the processing

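RLE normalisation kept the number of called chemokine ligand genes in all 11 comparisons, and no called gene changed sign under any alternative. DESeq2 called 4 in double-floxed, 7 in Foxa2-floxed and 5 in shScramble organoids (4-OHT against vehicle), beside 1892, 985 and 1092 of all genes. It called 2 and 1 between hairpins in vehicle and in 4-OHT (284 and 704 of all genes), and 5 and 2 in the double-floxed effect minus the Foxa1-floxed and the Foxa2-floxed effect (1187 and 311). With no filter on low counts the counts were 9 in double-floxed, 3 in Foxa1-floxed, 12 in Foxa2-floxed and 5 in shScramble organoids, while calls over all genes were 2391, 1141, 1816 and 1372. They were 3 and 2 between hairpins in vehicle and in 4-OHT (461 and 1058 of all genes), and 3 and 1 in the 2 differences (650 and 93). Without the replicate block of line they were 1 in double-floxed (82 of all genes) and 0 in Foxa2-floxed organoids (5), where a block of line and name prefix gave 6 (914) and counts summed per line gave 0 (73). Without line 1267B 6 were called in Foxa2-floxed organoids (1059 of all genes) and without 1526C 0 (16), and without 1027B 1 was called in double-floxed organoids (111) and without 1027D 0 (0). The double-floxed effect minus the Foxa1-floxed effect gave 2 without 1292B (263 of all genes) and 0 without 1552B (41). Prefix 17992 alone gave 0 (26), and both fits within 1 prefix were chosen after seeing the data. Hairpins fitted on their 4 libraries alone gave 2 for shNKX2-1 (245) and 5 for shScramble (1602). Leaving out 1 library gave 2 to 3 in double-floxed (228 to 575 of all genes), 0 in Foxa1-floxed (1 to 22), 0 to 7 in Foxa2-floxed (227 to 927), 1 to 7 in shNKX2-1 (258 to 6946) and 0 to 1 in shScramble organoids (138 to 243). It gave 0 between hairpins in vehicle (0 to 13), 0 to 2 in 4-OHT (0 to 5758) and 0 to 2 for the interaction (0 to 3552). The highest hairpin counts came without shNKX2-1 4-OHT replicate 1, which leaves the library rich in mitochondrial transcripts alone in its group. There 6946 of all 15223 genes were called for shNKX2-1, so 7 of 14 is near the share over all genes. The cause of these shifts was not tested. With 1 library of a group left, that library is assumed to vary like the other groups. Depth limits Ccl2, Ccl5, Ccl6, Ccl7 and Ccl9, which had under 5 counts in many libraries.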
